A study of Homo sapiens with 8 samples.

Results

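The genes described here encode the transcription factor NRF2, its inhibitor KEAP1 and 7 classical products of the NRF2 antioxidant response, measured in Caco-2 cells. Members were chosen by name, as NFE2L2, KEAP1, NQO1, HMOX1, GCLC, GCLM, TXNRD1, TXN and SRXN1, and each is represented by its probe set with 1 annotated symbol and the highest mean level. They make up 9 of 22392 genes that had such a probe set among the 53617 probe sets of the array. Caco-2 is a human colorectal adenocarcinoma line that forms an enterocyte-like monolayer, here kept without any added compound in both culture systems. Static cells (n = 4) grew on Transwell PET inserts of 1.12 cm2, whose medium was renewed every few days, and dynamic cells (n = 4) grew in a gut-on-chip, a microfluidic device perfused at 100 µL/h with a shear stress of about 0.002 dyne/cm2. Both were seeded at 75000 cells per cm2 in DMEM with serum, at passages between 29 and 45, and harvested on day 21. Flow, device and supply of medium changed together and cannot be told apart.

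NRF2, the product of NFE2L2, is a basic leucine zipper factor that is normally bound by KEAP1 and handed to a CUL3 ubiquitin ligase for degradation. When oxidants or electrophiles modify cysteines of KEAP1, NRF2 accumulates, pairs with small MAF proteins and binds antioxidant response elements near genes for glutathione synthesis, thioredoxin reduction and detoxification. In the intestinal epithelium this system is known for its response to reactive food constituents and drugs. The arrays measured RNA, whereas NRF2 is controlled largely through the amount of its protein.

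The antioxidant response element is shown here in promoters of members, because it is the element that NRF2 binds. Whether it takes part in the changes described below was not tested. The element was searched as TGACNNNGC on both strands in RefSeq windows of 300 bases, from 250 bases before to 50 after an annotated start (build GRCh38.p14). RefSeq windows were matched for 8 of the 9 members, with 11 windows in all because some genes have several starts. Matches were found in 4 windows of 3 genes, KEAP1, GCLM and TXNRD1, with both starts of TXNRD1 among them. For 27 other pathway genes named below, 38 windows of 24 genes were matched, and 5 of these windows held the motif. Over all 35116 windows of this length, 13.3% hold it. Differences between these shares were not tested. No member window held the AP-1 motif TGANTCA, which overlaps the element in some genes and is present in 7.71% of all windows. In the sequences below, printed 5′ to 3′ on the strand of the gene, capitals mark the matches to TGACNNNGC on either strand. The window of SRXN1, the member with the largest change, is shown beside them and holds no match, which says only that these letters are not in this window.
GCLM (chr1:93909381-93909680, minus strand): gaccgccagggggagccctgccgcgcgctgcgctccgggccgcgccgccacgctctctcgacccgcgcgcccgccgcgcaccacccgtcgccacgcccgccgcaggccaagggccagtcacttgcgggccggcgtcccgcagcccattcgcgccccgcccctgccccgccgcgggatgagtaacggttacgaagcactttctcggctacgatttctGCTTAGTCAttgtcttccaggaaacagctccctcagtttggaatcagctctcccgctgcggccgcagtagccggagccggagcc
TXNRD1, upstream start (chr12:104215529-104215828, plus strand): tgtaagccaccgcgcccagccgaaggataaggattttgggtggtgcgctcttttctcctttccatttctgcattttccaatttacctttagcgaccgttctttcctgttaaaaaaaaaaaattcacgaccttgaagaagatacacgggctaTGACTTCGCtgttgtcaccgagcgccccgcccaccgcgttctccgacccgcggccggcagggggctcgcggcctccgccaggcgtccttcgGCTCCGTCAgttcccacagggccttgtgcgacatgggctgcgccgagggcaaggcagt
TXNRD1, downstream start (chr12:104286782-104287081, plus strand): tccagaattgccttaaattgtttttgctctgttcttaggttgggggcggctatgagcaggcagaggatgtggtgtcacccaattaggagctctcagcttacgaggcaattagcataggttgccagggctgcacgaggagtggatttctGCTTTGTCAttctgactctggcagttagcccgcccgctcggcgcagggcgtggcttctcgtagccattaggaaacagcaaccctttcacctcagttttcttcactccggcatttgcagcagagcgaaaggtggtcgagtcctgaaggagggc
KEAP1, downstream start (chr19:10502722-10503021, minus strand): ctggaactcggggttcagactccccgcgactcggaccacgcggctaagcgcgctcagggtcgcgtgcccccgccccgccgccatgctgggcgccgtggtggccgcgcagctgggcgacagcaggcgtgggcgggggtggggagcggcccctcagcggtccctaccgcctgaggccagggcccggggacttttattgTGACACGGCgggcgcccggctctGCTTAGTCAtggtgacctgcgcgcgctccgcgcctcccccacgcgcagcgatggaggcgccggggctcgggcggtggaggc
SRXN1 (chr20:653151-653450, minus strand): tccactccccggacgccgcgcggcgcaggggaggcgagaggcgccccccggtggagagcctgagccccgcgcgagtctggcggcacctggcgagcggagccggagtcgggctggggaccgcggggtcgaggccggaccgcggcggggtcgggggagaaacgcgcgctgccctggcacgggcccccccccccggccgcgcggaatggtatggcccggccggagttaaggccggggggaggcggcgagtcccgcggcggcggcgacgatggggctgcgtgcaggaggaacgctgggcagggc
Read on their own strand, the downstream start of KEAP1 and the start of GCLM held the same 9 bases, TGACTAAGC, at -31 to -23 and at -34 to -26 from the start, both followed by A, as was the match at the downstream start of TXNRD1. The element with this A is present in 3.18% of all windows. The second match at that KEAP1 start was TGACACGGC, and the window of the upstream KEAP1 start held none. TXNRD1 held TGACTTCGC and TGACGGAGC at the upstream start and TGACAAAGC at the downstream start. A match is a description of the sequence and not of binding.

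Levels are log2 values that the authors deposited after robust multiarray analysis (RMA), so that a difference of 1 is a doubling on this scale. Array medians lay between 2.46 and 2.49. Gut-on-chip and Transwell cells were compared in limma, with a moderated statistic whose prior variance depends on the mean level, and a false discovery rate (FDR) under 0.01 over all 53617 probe sets was called a change. The labels name no separate cultures behind the 4 samples of a group, so each FDR rests on the scatter among the samples at hand, and part of this scatter may be technical. All 9 epithelial and enterocyte markers lay above the median probe set. Their summed level was 74.9 to 76.2 in Transwell and 74.1 to 76.1 in gut-on-chip arrays. Of the other markers, 2 of 4 immune, 1 of 3 endothelial and 2 of 4 fibroblast genes also lay above this median. It is therefore a low bar that does not establish the cell type. Within the epithelial list KRT18 and KRT19 were upregulated, and VIL1 (log2FC = -1.01), CDX2 (-0.53) and LGALS4 (-1.72) were downregulated in the gut-on-chip. Of 4 measured immune markers none passed the test, and their summed level was 21.1 to 21.7 in Transwell and 21.2 to 21.9 in gut-on-chip arrays. PTPRC (mean levels of 1.51 and 1.35) and CD3E (2.37 and 2.39) lay below the median of 2.45, whereas CD68 (10.4 and 10.6) and LYZ (7.18 and 7.28) lay above it. The 3 endothelial markers summed to 5.35 to 6.75 and 7.44 to 8.51, with CDH5 upregulated (1.84), and the 4 fibroblast markers to 11.4 to 12.4 and 10.3 to 10.7, with COL1A1 downregulated (-0.76). The part of these marker differences in the results below was not tested, and in such bulk RNA fewer cells of a type and less RNA per cell cannot be told apart.

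Of the 9 members, 7 were upregulated in the gut-on-chip, none was downregulated and 2, KEAP1 and HMOX1, did not pass the test. Members were chosen with earlier results of these data known, so this count is a description. Over all probe sets tested, 9.56% passed, 5.16% as upregulated and 4.41% as downregulated. Over the 22392 genes with 1 probe set each, 15.8% passed and 8.72% were upregulated, and these shares were 33.6% and 18.8% for the 8555 genes whose mean level was at least that of GCLC, the lowest among the members. For all 9 members every gut-on-chip array lay above every Transwell array, which was so, in one direction or the other, for 20.2% of all probe sets, 30.7% of all genes and 55.9% of those 8555. The median log2FC was 0.61 over the members and 0.01 over all genes. Without gut-on-chip replicate 2, whose members were mostly lowest, 7 members again passed, and 6 or 7 passed when any single array was left out, since GCLC lay close to the threshold.

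**Figure D1:**
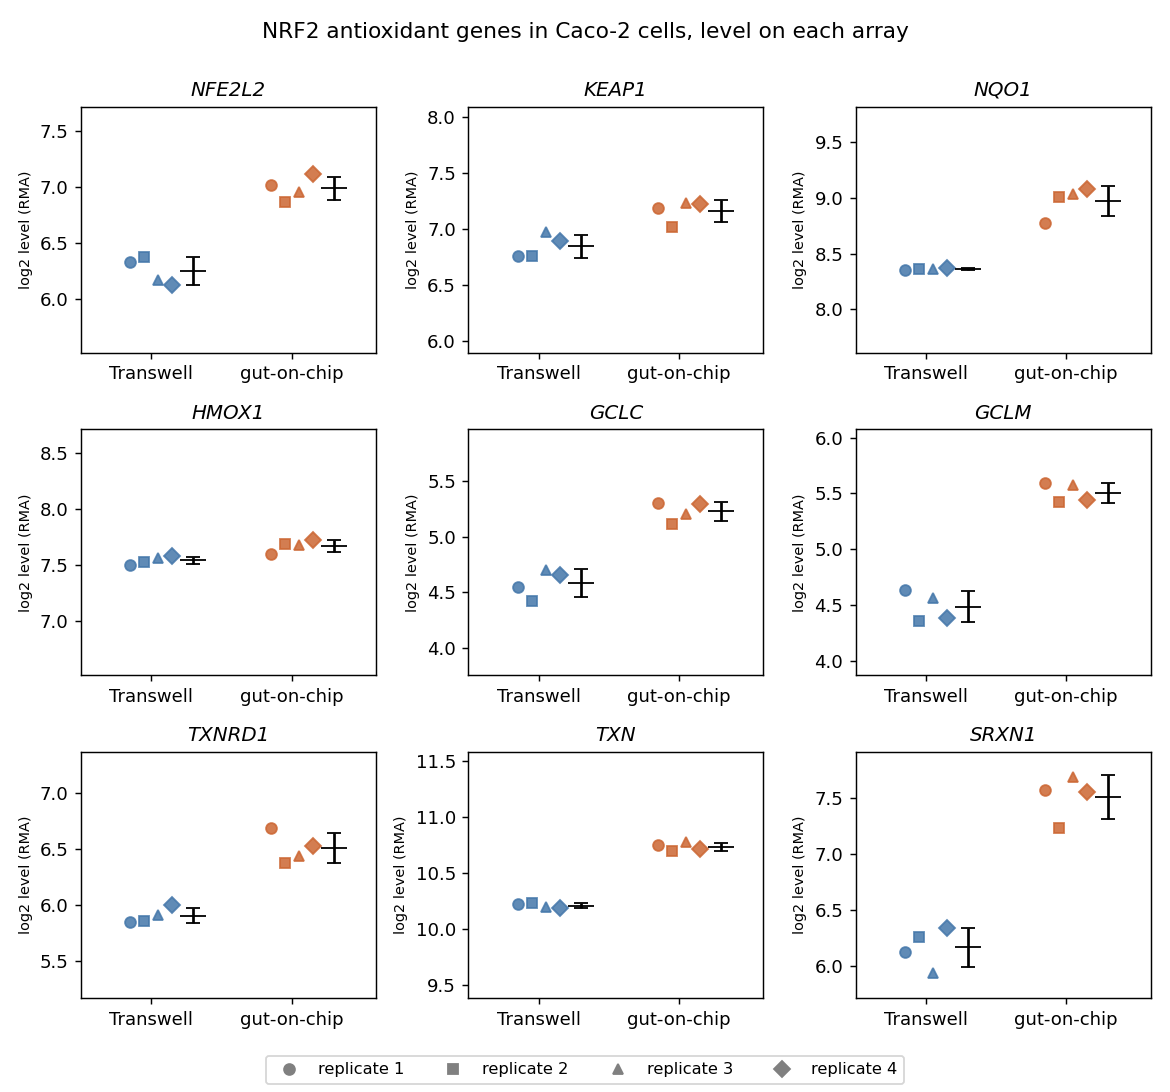
Log2 level (RMA) of each of the 9 members on the 4 Transwell arrays (blue) and the 4 gut-on-chip arrays (orange), 1 symbol shape per replicate number, with the group mean and SD in black and every panel spanning the same range of log2 units. The groups do not overlap in any panel, and the distance between them is widest for SRXN1 and narrowest for HMOX1.

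NFE2L2, which encodes NRF2 itself, had levels of 6.33, 6.38, 6.17 and 6.12 in Transwell replicates 1 to 4 and of 7.02, 6.86, 6.95 and 7.11 in gut-on-chip replicates 1 to 4. Every gut-on-chip array was higher, with a gap of 0.49 on the log2 scale between the groups. The mean rose from 6.25 ± 0.12 to 6.99 ± 0.11 (SD, n = 4 each), a 1.67-fold increase (log2FC = 0.74, SE 0.10, FDR = 5.22e-04 from limma). A second probe set, annotated to NFE2L2 and to LOC100130691, was not used for NFE2L2, because it cannot be assigned to either gene. Its mean levels were 4.52 and 4.73 with overlapping groups, and it did not pass the test (log2FC = 0.21, FDR = 0.622).

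KEAP1, the cysteine-rich adaptor that presents NRF2 for degradation, had levels of 6.76, 6.76, 6.97 and 6.89 in the Transwell replicates and of 7.18, 7.01, 7.23 and 7.22 in the gut-on-chip replicates. Gut-on-chip replicate 2 came within 0.04 of Transwell replicate 3, so the groups were barely apart. The log2FC was 0.32 (SE 0.09, FDR = 0.0346 from limma), which did not pass the threshold, and the 95% interval of the difference ran from 0.12 to 0.51 without adjustment for the number of probe sets.

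NQO1 encodes the NAD(P)H quinone dehydrogenase that reduces quinones directly to hydroquinones and is a standard readout of NRF2 activity. Its levels were 8.35, 8.36, 8.36 and 8.37 in the Transwell replicates and 8.78, 9.003, 9.03 and 9.08 in the gut-on-chip replicates. The static samples were nearly identical, with an SD of 0.00801, whereas the gut-on-chip samples had an SD of 0.13 and replicate 1 lay below the others. The mean rose 1.53-fold (log2FC = 0.61, SE 0.08, FDR = 3.87e-04 from limma). Without gut-on-chip replicate 1 the log2FC was 0.68.

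HMOX1 encodes heme oxygenase 1, the inducible enzyme that opens heme to biliverdin, iron and carbon monoxide. Its levels were 7.50, 7.52, 7.56 and 7.58 in the Transwell replicates and 7.59, 7.68, 7.68 and 7.72 in the gut-on-chip replicates. Although the groups did not overlap, only 0.015 on the log2 scale separated gut-on-chip replicate 1 from Transwell replicate 4. The log2FC of 0.13 (SE 0.07, FDR = 0.269 from limma) did not pass the test, and the 95% interval of -0.02 to 0.28 included 0.

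**Figure D2:**
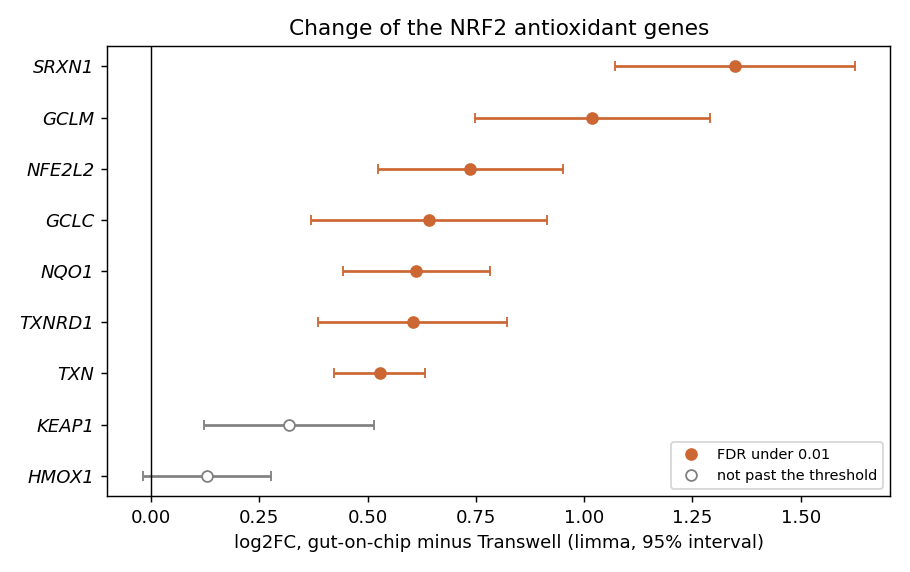
Difference in log2 level between gut-on-chip and Transwell cells for each member, with the 95% interval from limma (not adjusted for the number of probe sets); filled symbols passed an FDR of 0.01. SRXN1 (1.35) and GCLM (1.02) lie to the right of a cluster of 5 genes between 0.53 and 0.74, and the interval of HMOX1 includes 0.

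Glutathione synthesis begins with glutamate-cysteine ligase, whose catalytic subunit is encoded by GCLC and whose modifier subunit, which raises the affinity for glutamate, is encoded by GCLM. GCLM had levels of 4.64, 4.35, 4.57 and 4.39 in the Transwell replicates and of 5.59, 5.42, 5.57 and 5.44 in the gut-on-chip replicates. The groups were separated by 0.79, and the mean roughly doubled, with a 2.03-fold increase (log2FC = 1.02, SE 0.12, FDR = 3.09e-04 from limma). GCLC had levels of 4.55, 4.42, 4.70 and 4.66 in the Transwell replicates and of 5.30, 5.12, 5.20 and 5.29 in the gut-on-chip replicates. It rose 1.56-fold (log2FC = 0.64, SE 0.12, FDR = 0.00493 from limma). The call of GCLC was lost when any of Transwell replicates 1, 2, 3 or 4 or gut-on-chip replicates 1, 3 or 4 was left out, with an FDR of 0.0105 to 0.0180, and it was kept without gut-on-chip replicate 2 (FDR = 0.00814). The log2FC stayed between 0.59 and 0.68 in these fits.

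The thioredoxin system uses NADPH to reduce protein disulfides through thioredoxin (TXN) and its selenium-containing reductase (TXNRD1), and sulfiredoxin (SRXN1) repairs overoxidised peroxiredoxins. SRXN1 had the largest change of the 9 members. Its levels were 6.12, 6.26, 5.94 and 6.34 in the Transwell replicates and 7.58, 7.23, 7.69 and 7.56 in the gut-on-chip replicates, so the lowest gut-on-chip array was 0.89 above the highest Transwell array. The mean rose 2.55-fold, from a mean of 6.17 (SD 0.18, n = 4) to 7.51 (SD 0.20, n = 4) (log2FC = 1.35, SE 0.12, FDR = 6.05e-05 from limma), and 98.5% of all genes had a lower log2FC. A second SRXN1 probe set below the array median, with mean levels of 1.93 and 2.32, had a log2FC of 0.39 (FDR = 0.269) and overlapping groups. The mean of both single-symbol SRXN1 probe sets had a log2FC of 0.87 and passed the test. A further probe set, annotated to SRXN1 and to SCRT2, was not used, because it cannot be assigned to either gene. Its mean levels were 2.03 and 2.05 with overlapping groups, and it did not pass (log2FC = 0.02, FDR = 0.951 from limma).

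TXN had levels of 10.23, 10.23, 10.20 and 10.19 in the Transwell replicates and of 10.75, 10.70, 10.78 and 10.72 in the gut-on-chip replicates. Both groups were tight, with an SD of 0.02 and 0.04, and TXN had the smallest FDR of the members with a 1.44-fold increase (log2FC = 0.53, SE 0.05, FDR = 4.99e-05 from limma). TXNRD1 had levels of 5.85, 5.86, 5.91 and 5.995 in the Transwell replicates and of 6.69, 6.38, 6.43 and 6.52 in the gut-on-chip replicates. It rose 1.52-fold (log2FC = 0.60, SE 0.10, FDR = 0.00196 from limma), and gut-on-chip replicate 1, in which NQO1 was lowest, had its highest level. In order of change the members ran from SRXN1 and GCLM through NFE2L2, GCLC, NQO1, TXNRD1 and TXN to KEAP1 and HMOX1. The 95% intervals of neighbours in this order overlapped throughout, and the differences between members were not tested.

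Within the gut-on-chip, replicate 2 had the lowest level of its group for 7 of the 9 members and the highest for none. Over all genes the same array was lowest for 28.3%, and for 38.7% of the 1953 upregulated genes. NQO1 and HMOX1 were the exceptions, with the lowest level in gut-on-chip replicate 1. The mean deviation of the members from their group mean was -0.10 in gut-on-chip replicate 2 and between -0.02 and 0.04 in the other 7 arrays. No Transwell array was lowest for more than 4 members.

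**Figure D3:**
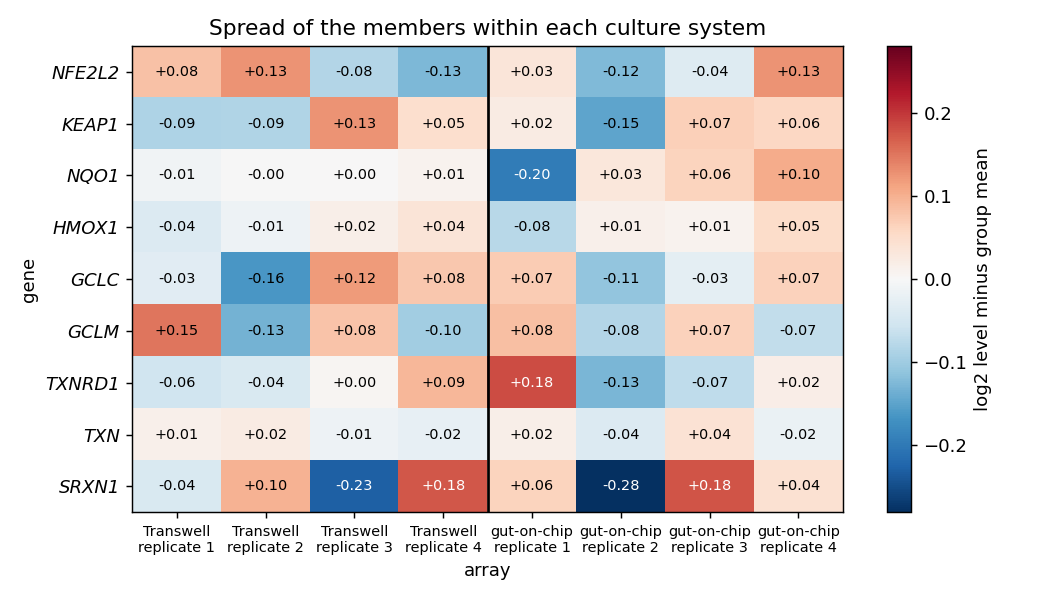
Log2 level of each member on each array minus the mean of its culture system, printed in each cell and coloured from blue (below) to red (above). Gut-on-chip replicate 2 is below the mean for 7 members, and gut-on-chip replicate 1 is low for NQO1 (-0.20) and high for TXNRD1 (0.18).

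Other genes of the NRF2 pathway moved in both directions. The 8 lists were written from textbook knowledge, with earlier results of these data known, so their counts are descriptions. They held 102 genes, of which 89 were measured with a single-symbol probe set. Without the members, 80 genes were measured, of which 15 rose, 13 fell and 52 had no call, with a median log2FC of -0.00. Over all genes, 8.72% were upregulated and 7.06% downregulated. Among the 8555 genes with a mean level at least that of GCLC, 18.8% were upregulated and 33.6% passed in either direction. Some listed genes lay below that level. The counts per list below, some of which include members, stand against the same shares. Genes lower in the gut-on-chip included GSTA1, PTGR1, CBR1 and AKR1C3, described below. Whether NRF2 takes part in any of these changes was not tested.

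Among 13 measured regulators and partners of NRF2, 6 were upregulated, NFE2L2 itself among them, and none was downregulated (median log2FC = 0.56). SQSTM1, the autophagy receptor p62 that binds KEAP1 and is itself a target of NRF2, had a mean of 5.79 (SD 0.07) in the 4 Transwell and of 6.996 (SD 0.19) in the 4 gut-on-chip arrays, which was an increase (log2FC = 1.21, SE 0.11, FDR = 4.84e-05 from limma). The small MAF gene MAFF (log2FC = 0.75) and the dipeptidyl peptidase gene DPP9 (0.73) were upregulated too. So were NFE2L3 (0.68) and GSK3B (0.56), named after their values were seen. This list holds inhibitors as well as partners of NRF2, so its count has no single direction of effect on NRF2. MAFF lost its call without Transwell replicate 1, 2 or 3 or gut-on-chip replicate 3 or 4 (FDR of 0.0117 to 0.0135). NFE2L1, the gene of the related factor NRF1, had a log2FC of -0.21 (FDR = 0.0293).

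For glutathione synthesis and recycling, 12 genes were measured, of which 3 were upregulated and none was downregulated (median log2FC = 0.13). Beside GCLC and GCLM this was SLC3A2, which encodes the heavy chain of the cystine and other amino acid transporters (log2FC = 0.83). The light chain gene of the cystine transporter, SLC7A11, is named here after its values were seen. It had a mean level of 7.34 in Transwell and 6.50 in gut-on-chip arrays without overlap (log2FC = -0.84, SE 0.19, FDR = 0.0131 from limma), which did not pass. The glutathione reductase gene GSR had a log2FC of 0.21 (FDR = 0.0881) and the glutathione synthetase gene GSS, likewise named after its values were seen, of -0.01 (FDR = 0.972).

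Of 17 glutathione peroxidase and transferase genes, 2 were upregulated and 4 were downregulated (median log2FC = -0.26). GSTA1, an alpha class glutathione transferase gene of enterocytes, had a mean of 9.19 (SD 0.10) in the 4 Transwell and of 5.695 (SD 0.66) in the 4 gut-on-chip arrays, the largest decrease in the lists (log2FC = -3.49, SE 0.27, FDR = 1.98e-05 from limma), and GSTA4, whose enzyme conjugates 4-hydroxynonenal, fell by 1.16 on the log2 scale. Alpha class genes are alike in sequence, so signal of GSTA1 may be shared with its neighbours. GPX8, a peroxidase gene of the endoplasmic reticulum (log2FC = 2.54), and GPX1, the cytosolic selenium-dependent peroxidase gene (1.27), were upregulated. GPX4, which reduces lipid hydroperoxides, had a log2FC of -0.19 (FDR = 0.328).

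Of 11 thioredoxin, peroxiredoxin and sulfiredoxin genes, 4 were upregulated and 1 was downregulated (median log2FC = 0.20). Of these 4, 3 were the members TXN, TXNRD1 and SRXN1. The other was TXNIP, which encodes a protein that binds and inhibits thioredoxin (log2FC = 0.78, SE 0.07, FDR = 5.56e-05 from limma). The downregulated gene was PRDX6 (log2FC = -0.40), named after its values were seen. PRDX1 had a log2FC of 0.20 (FDR = 0.0412). Among 10 NADPH-producing enzymes, the malic enzyme gene ME1 was upregulated (log2FC = 0.99) and PGLS of the pentose phosphate pathway was downregulated (-0.53), while the transketolase gene TKT had a log2FC of 0.19 (FDR = 0.210). The call of PGLS was lost without Transwell replicate 2, 3 or 4 or gut-on-chip replicate 1, 2 or 4 (FDR of 0.0173 to 0.0325) and with limma without a trend (FDR = 0.0203) or with its own trend (FDR = 0.0106).

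Among 15 genes for quinones, carbonyls and epoxides, 2 were upregulated, of which NQO1 was 1, and 5 were downregulated (median log2FC = -0.28). PTGR1, a reductase gene for leukotriene B4 and alkenals, had the largest decrease (log2FC = -1.42, SE 0.07, FDR = 1.86e-06 from limma). The carbonyl reductase gene CBR1 (-1.27), the aldo-keto reductase gene AKR1C3 (-0.98) and ABCC2, which encodes the apical exporter of glutathione and glucuronide conjugates (-0.85), were downregulated as well. Probes for AKR1C3 may share signal with its near-identical relatives. UGDH, whose enzyme makes UDP-glucuronate, had a log2FC of 0.24 (FDR = 0.0241).

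In the list for heme breakdown and ferritin, 3 of 8 measured genes were upregulated and none was downregulated (median log2FC = 0.33). This count and median include FECH (log2FC = 0.01) and HRG (0.08), which are not genes of heme breakdown or ferritin and did not pass. Both are named after their values were seen. HMOX1, at the first step, did not pass, while BLVRA, the gene of the biliverdin reductase that acts next (log2FC = 1.29), BLVRB (0.61) and the ferritin light chain gene FTL (0.48) were upregulated. BLVRB lost its call without any of Transwell replicates 1 to 4 or gut-on-chip replicates 1, 3 or 4 (FDR of 0.0140 to 0.0225) and with limma without a trend (FDR = 0.0183). In the list for superoxide and hydrogen peroxide removal, all 3 measured genes passed, and SOD2 had no single-symbol probe set. The peroxidase and peroxiredoxin genes, which stand in other lists above, did not all pass. SOD1 was upregulated (log2FC = 0.74), and the catalase gene CAT (-0.97) and SOD3 (-1.08) were downregulated, although SOD3 passed narrowly (FDR = 0.00998) and lost its call without any of Transwell replicates 1 to 4 or gut-on-chip replicates 1, 2 or 4 (FDR of 0.0143 to 0.0344) and with limma without a trend (FDR = 0.0102) or with array weights (FDR = 0.0101).

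**Figure D4:**
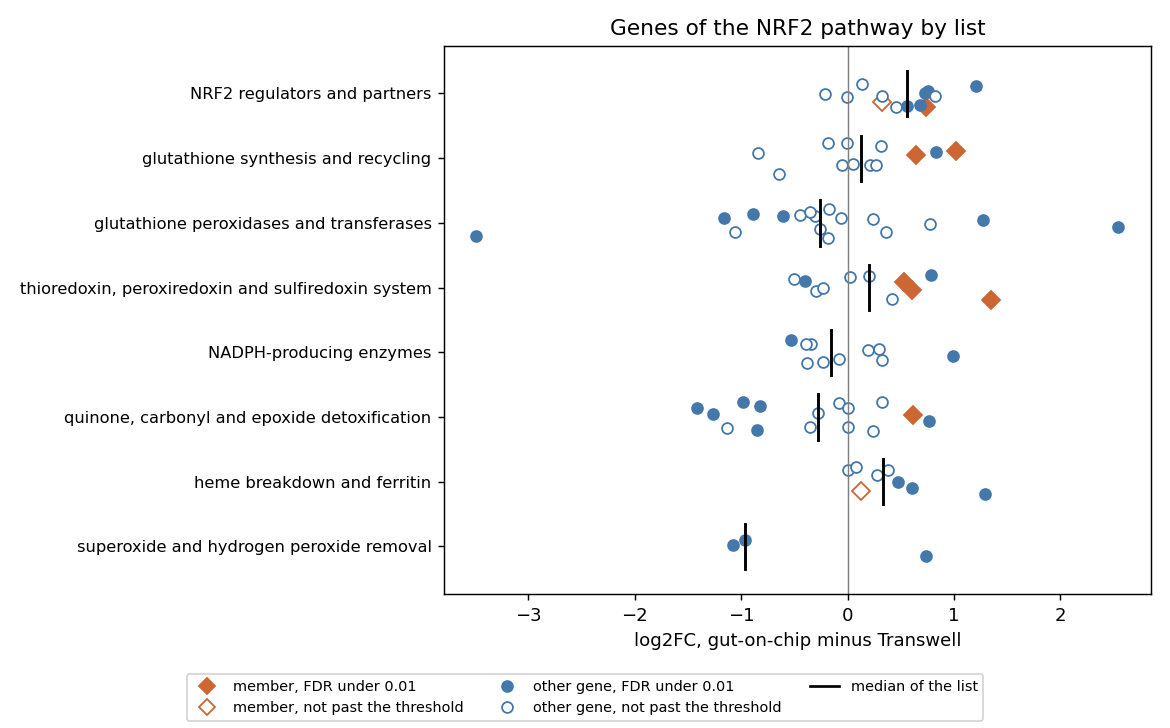
Difference in log2 level between gut-on-chip and Transwell cells for 89 measured genes of the 8 lists, with members as diamonds, other genes as circles, filled symbols for an FDR under 0.01 and a black bar at the median of each list. The lists of regulators, glutathione synthesis and heme breakdown hold no downregulated gene, whereas the transferase and carbonyl lists reach down to GSTA1 (-3.49) and PTGR1 (-1.42).

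Genes with the most similar pattern over the 8 arrays were sought for 3 members among 14298 other genes above the median level. For NFE2L2 they were SLF2, VGLL1 and SFN (Pearson r = 0.996, 0.996 and 0.995). For NQO1 they were the clusterin gene CLU, TRAPPC1 and CCDC88C (r = 0.997, 0.995 and 0.995), and for HMOX1 they were IFT56, UBALD2 and CDC27 (r = 0.982, 0.979 and 0.976). The 8 points share the difference between the 2 culture systems, so these values mostly describe that difference.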

How the data were processed

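RNA of 8 Caco-2 samples was hybridised to Affymetrix Human Gene 2.1 ST arrays. The values the authors deposited are on a log2 scale after RMA (version not given in the sources used here), which corrects background, equalises array distributions and summarises probe sets, so overall signal differences are removed. The study's methods describe a custom set of genes, but the table used here holds 53617 probe sets, of which 23866 had 1 annotated symbol, 1852 several and 27899 none. Scanner files were not used here, so background correction could not be varied.

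Samples were grouped by title and compared with limma 3.58.1 in R 4.3.3, without a block. As in the study's methods, the moderated statistic was intensity-based (loess span 0.3, prior degrees of freedom 3.88, residual 6). P-values were two-sided, with Benjamini-Hochberg adjustment across the whole table, and the script was tested on simulated data. The number of arrays limits precision. Named genes were all members and, per list, up to 4 called genes with the largest change and the highest-level gene without a call. Members and lists were chosen with earlier results of these data known. Alternatives varied the moderation, normalization, filter, probe set choice, array weights, replicate block and FDR, and left out each array in turn. Promoters are RefSeq windows of GRCh38.p14.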

Additional observations from a re-analysis of the deposited data

Results flagged for a closer look

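Among 72 groups of 4 samples examined for the 9 members and 27 other named genes, Dixon's ratio singled out 1, where chance would give about 1 in 20, and none of the 18 groups of members. PRDX1, a peroxiredoxin gene, had a level of 10.83 in gut-on-chip replicate 2 while the other 3 gut-on-chip arrays lay between 10.71 and 10.72.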

How the results depend on the processing

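Over 19 alternatives, the members kept their direction in all 171 comparisons, and 161 also kept their side of the threshold. NFE2L2, NQO1, GCLM, TXN and SRXN1 passed and HMOX1 failed in every one. The 9 losses were 8 for GCLC and 1 for TXNRD1, and KEAP1 passed at an FDR under 0.05. With single arrays left out, upregulated members numbered 6 to 7. Numbered samples did not deviate together (r of -0.04 to 0.00 between culture systems, and no sample was closest to its own number). With replicate number as a block, which leaves fewer residual degrees of freedom, 1764 probe sets were upregulated instead of 2765 and 5 members passed, with an FDR of 0.0231 for GCLC and 0.0129 for TXNRD1. MAFF (FDR of 0.0193), PGLS (0.0251), BLVRB (0.0171) and SOD3 (0.0116) lost their calls with the block as well. At an FDR under 0.05, 4510 probe sets were upregulated and 3749 downregulated (2363 at 0.01), and 23 pathway genes were downregulated instead of 13. The 27 other named genes reversed in none of 513 comparisons, with 34 calls lost and 6 gained.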
